A study of Mus musculus with 2 samples.

Results

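Cystatin C (Cst3), legumain (Lgmn) and 8 cathepsins (Ctsb, Ctsd, Ctss, Ctsl, Ctsz, Ctsa, Ctsh and Ctsc) were followed in microglia of the mouse hypothalamus. The genes were chosen by name, and all 10 were found among the 31053 genes of the count tables. Microglia from young wild-type mice were sorted 20 hours after the animals had received plasma protein carrying a dye, and the sort split them into a plasma-positive and a plasma-negative fraction. Each fraction is 1 droplet library (10x Chromium 3' kit v3.1) made from several pooled mice, so no value has a replicate check and no p-value is given for the fractions. The strain, the exact age, the number of mice and the dye threshold of the sort are not given in the sources used here.

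Cathepsins are proteases of the endosome and lysosome. Cathepsins B, L, S, Z, H and C are cysteine proteases of the papain family, cathepsin D is an aspartic protease, cathepsin A a serine carboxypeptidase, and legumain cuts after asparagine and helps to activate other cathepsins. Cystatin C is a secreted protein that inhibits papain-family cysteine proteases, and microglia are known for high expression of both the proteases and this inhibitor.

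The plasma-negative library kept 9860 cells with 34534518 UMIs (unique molecules counted) and the plasma-positive library 10362 cells with 41984977 UMIs. The median cell held 3270.5 and 3753 UMIs, and mitochondrial genes took 1.08% and 1.27% of the median cell's UMIs. All 11 microglia markers examined were detected in 64.4% to 99.8% of the cells of both libraries, which fits the label. Of 67 markers of other cell types none reached 25% of cells in either library. Siglech, listed for both microglia and dendritic cells and found in 93.5% and 95.2% of cells, was counted with the microglia markers only. Because no population of another cell type was set apart here, the background of free RNA could not be read in a cell type that should lack the 10 genes. The cell barcodes were not analysed here, so barcodes shared by the libraries were not counted.

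Short motifs of factors that act on lysosomal and myeloid genes were looked up in the promoters, to show what the genes share in sequence apart from their levels. RefSeq promoters on GRCm38.p6, from 250 bases before to 50 bases after the start of transcription, were found for 8 members in 10 windows, among 32851 windows in all. The motif TCACGTGA, an E-box bound by TFEB and its relatives, was in 0.974% of all windows and in those of Ctsa and Ctsd. The motif GAGGAAGT, a core bound by the myeloid factor PU.1, was in 3.2% of all windows and in those of Ctss and Ctsc. Stretches around these 4 matches are shown 5' to 3' along the gene's strand, with the motif in capitals, and in Ctss and Ctsc the motif lies on the opposite strand.
Ctsa, chr2:164833700-164833784, plus strand: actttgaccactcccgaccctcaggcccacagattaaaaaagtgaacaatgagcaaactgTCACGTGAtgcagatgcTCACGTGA
Ctsd, chr7:142387911-142387986, minus strand: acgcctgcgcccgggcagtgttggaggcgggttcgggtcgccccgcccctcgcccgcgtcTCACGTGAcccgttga
Ctss, chr3:95526724-95526799, plus strand: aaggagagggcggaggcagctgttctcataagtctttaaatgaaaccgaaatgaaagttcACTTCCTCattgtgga
Ctsc, chr7:88277874-88277949, plus strand: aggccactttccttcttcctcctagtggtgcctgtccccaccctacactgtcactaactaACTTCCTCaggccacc
In Ctsa the motif starts at -13 and again at 4 relative to the start of transcription, in Ctsd at -99, in Ctss at -2 and in Ctsc at -151. The shorter CACGTG, which lies within TCACGTGA, was in 7.15% of all windows and in 4 of the 10, those of Ctsa, Ctsd, Ctsl and Lgmn, and TGACTCA, the site of AP-1, was in 5.20% of all windows and in none of the 10. All motifs were searched on both strands, and a match is a description of the letters and not a measured site.

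The inhibitor was by far the most abundant of the 10 transcripts. Levels are given as CPM, the UMIs of a gene per 1000000 UMIs of its library. Plasma-negative cells held Cst3 at 50720 CPM (95% exact Poisson interval 50645 to 50795), which is 5.07% of all their UMIs. Plasma-positive cells held it at 54377 CPM (54306 to 54447), or 5.44%. It ranked 2 of all genes in the first library and 1 in the second. The level was 7.21% higher in plasma-positive cells (7.0% to 7.42%), a log2 ratio of 0.10. A UMI stands for 1 captured molecule read at its 3' end, so levels are compared between genes without a length correction. These intervals, and all later ones, cover counting error only. They do not hold the spread between cells, and with 1 library a fraction they do not hold that between animals or sorts. In a sum over cells, fewer expressing cells and less RNA per cell cannot be told apart.

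Ctss, the cathepsin that is most typical of antigen-presenting cells, came next and showed the largest ratio among the 10. Its level was 7650 CPM (7620 to 7679) among plasma-negative cells. Among plasma-positive cells it was 8573 CPM (8545 to 8601), 12.1% higher (11.5% to 12.6%) with a log2 ratio of 0.16. Ctsb, an abundant endopeptidase that also trims from the carboxyl end, stood at 1198 CPM (1187 to 1210) and 1284 CPM (1274 to 1295), 7.20% higher (5.84% to 8.59%). Ctsh, an aminopeptidase, stood at 905 CPM (895 to 915) and 947 CPM (938 to 956), 4.63% higher (3.09% to 6.19%). In each of these 3 genes the intervals of the libraries do not overlap.

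The other cysteine cathepsins lay close to even. Ctsl, an endopeptidase, stood at 1519 CPM (1506 to 1532) and 1541 CPM (1529 to 1553). Ctsc, which activates the serine proteases of immune cells by removing dipeptides, stood at 554 CPM (546 to 562) and 562 CPM (555 to 569), and the interval of its ratio, 0.995 to 1.03, includes 1. Ctsz, a carboxypeptidase, was the only member that was lower in plasma-positive cells, at 1756 CPM (1742 to 1770) and 1698 CPM (1686 to 1711), a ratio of 0.967 (0.957 to 0.978).

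The proteases outside the papain family also lay close to even. Ctsd stood at 4829 CPM (4806 to 4852) and 4901 CPM (4880 to 4922), and Lgmn at 2744 CPM (2727 to 2762) and 2811 CPM (2795 to 2827), with log2 ratios of 0.02 and 0.03. Ctsa, which also protects lysosomal beta-galactosidase and neuraminidase in a complex, had the lowest level of the 10, at 472 CPM (465 to 479) and 474 CPM (467 to 480). Its ratio was 1.00 (0.983 to 1.02). The 2 genes with a TCACGTGA match, Ctsa and Ctsd, thus had ratios of 1.00 and 1.01, and the 2 with a GAGGAAGT match, Ctss and Ctsc, had 1.12 and 1.01.

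**Figure D1:**
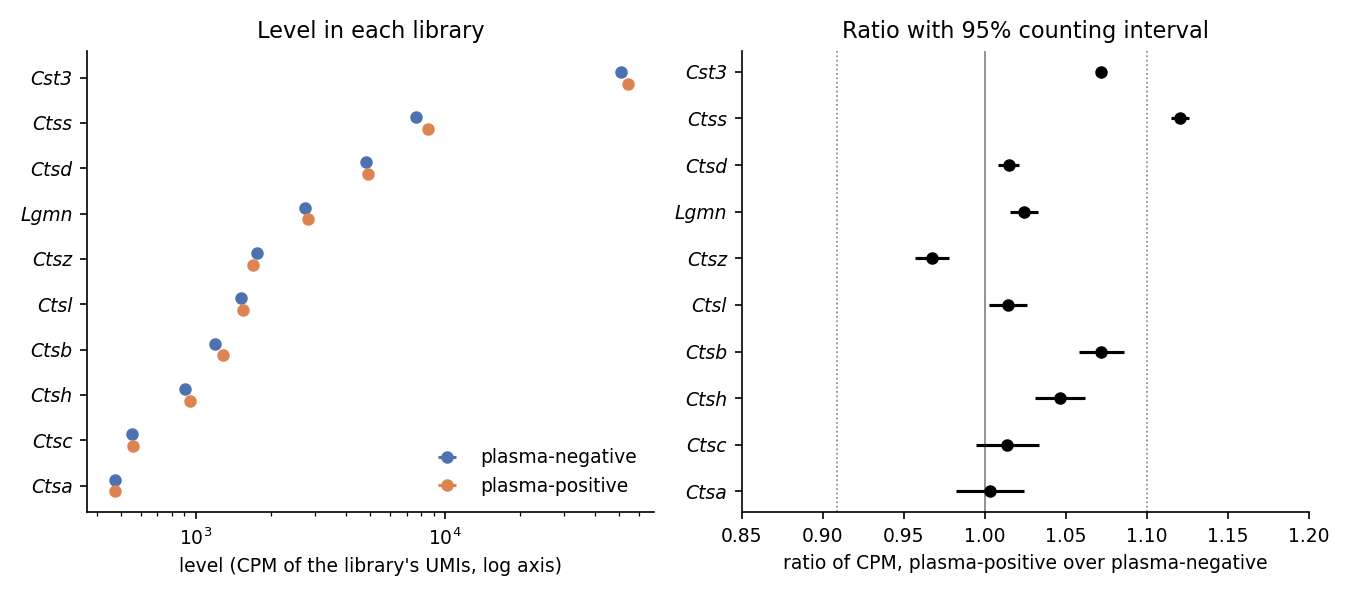
Levels of the 10 genes in each library in CPM on a log axis (left) and the plasma-positive level divided by the plasma-negative level (right), with 95% counting intervals, which on the left are mostly smaller than the points; dotted lines mark 1.1-fold in either direction. The order of the genes is the same in both libraries, Ctss has the highest ratio at 1.12, and only Ctsz lies below 1, at 0.967.

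The order of the 10 levels was identical in both libraries: Cst3, Ctss, Ctsd, Lgmn, Ctsz, Ctsl, Ctsb, Ctsh, Ctsc and Ctsa. No 2 neighbours in this order had overlapping counting intervals. The widest step was from Cst3 to Ctss, 6.63-fold in plasma-negative and 6.34-fold in plasma-positive cells, and the narrowest was from Ctsz to Ctsl, 1.16-fold and 1.102-fold.

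The differences between the fractions were small. Of 3540 genes with at least 50 CPM in either library, 0.141% were higher by 1.5-fold or more in plasma-positive cells and 0% were lower by that much, and 0 of the 10 members were past this fold in either direction. At 1.1-fold, 7.18% of the genes were higher and 11.5% lower. Of the members 1 was higher (Ctss; 3 under TMM scaling) and 0 were lower. The median log2 ratio was 0.03 over the members (-0.05 to 0.16) and -0.03 over all 3540 genes. Above 0 lay 9 of the 10 members but 1382 of the 3540 genes. Of these members, Ctsa went to -0.01 when Malat1 was left out of the total. The genes with at least 200 CPM, a limit that all 10 members passed, numbered 763. Their median log2 ratio was 0.0002, and at 1.1-fold 18.5% of them were higher and 8.39% lower. The split of all genes at 1.1-fold depends on the scaling, with 10.3% higher and 6.86% lower by the median of ratios, 12.4% and 5.40% by TMM (trimmed mean of M-values), and 9.0% and 8.08% by a total without mitochondrial and ribosomal protein genes.

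Cst3 and the summed papain-family cathepsins stood in nearly the same proportion in both libraries. The 10 genes together took 7.23% of all UMIs in plasma-negative and 7.72% in plasma-positive cells. The 9 proteases alone took 2.16% and 2.28%, and the 6 cysteine cathepsins, all of the papain family, 1.36% and 1.46%. For each UMI of a cysteine cathepsin plasma-negative cells held 3.73 UMIs of Cst3 (3.72 to 3.75) and plasma-positive cells 3.72 (3.71 to 3.73), a ratio of 0.997 (0.993 to 1.00). The even value is a sum of unlike parts, and among the 6 only Ctss went down. Cst3 per Ctss UMI went from 6.63 in plasma-negative to 6.34 in plasma-positive cells. It went up per UMI of Ctsz (28.9 to 32.0), Ctsl (33.4 to 35.3), Ctsc (91.5 to 96.7) and Ctsh (56.0 to 57.4), and stayed at 42.3 for Ctsb. Outside the 6, Cst3 per Lgmn UMI went from 18.5 to 19.3. These are proportions of transcripts, and protein or enzyme activity was not measured.

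To compare single cells at 1 depth, each cell was thinned at random to 1000 UMIs, which left out 796 plasma-negative and 603 plasma-positive cells with fewer. Cst3 was present in all of the 9064 and 9759 thinned cells (99.96% to 100% by the exact binomial interval), and Ctss in 99.5% and 99.7%. Ctsd was found in 97.6% and 97.5% of cells, and Lgmn in 92.4% and 92.8%. The shares then went down with the level, from 80.3% and 79.2% for Ctsz to 36.5% and 37.8% for Ctsa. Without thinning, Ctsz had a UMI in 95.2% and 96.1% of cells and Ctsa in 71.9% and 76.6%. The median thinned cell of each library held UMIs of 8 of the 10 members.

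The spread of Cst3 between cells went well past counting error. The standard deviation of Cst3 over its mean was the smallest of the 10 at this depth. That measure includes counting error, which weighs most on sparse genes, so it does not rank the members by their spread beyond counting. Its thinned count had a 5th percentile of 16, a median of 49 and a 95th percentile of 91 in plasma-negative cells, against 21, 53 and 95 in plasma-positive cells. Its standard deviation was 44.5% of its mean in plasma-negative and 41.3% in plasma-positive cells, against 48.1% and 48.0% for Ctss and 58.4% and 59.1% for Ctsd. Its variance over its mean was 10.1 and 9.39, where counting alone would give about 1, and this ratio grows with the level. For Ctss the same ratio was 1.78 and 1.97, for Ctsd 1.63 and 1.70, and for the other 7 proteases it lay between 1.02 and 1.30.

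**Figure D2:**
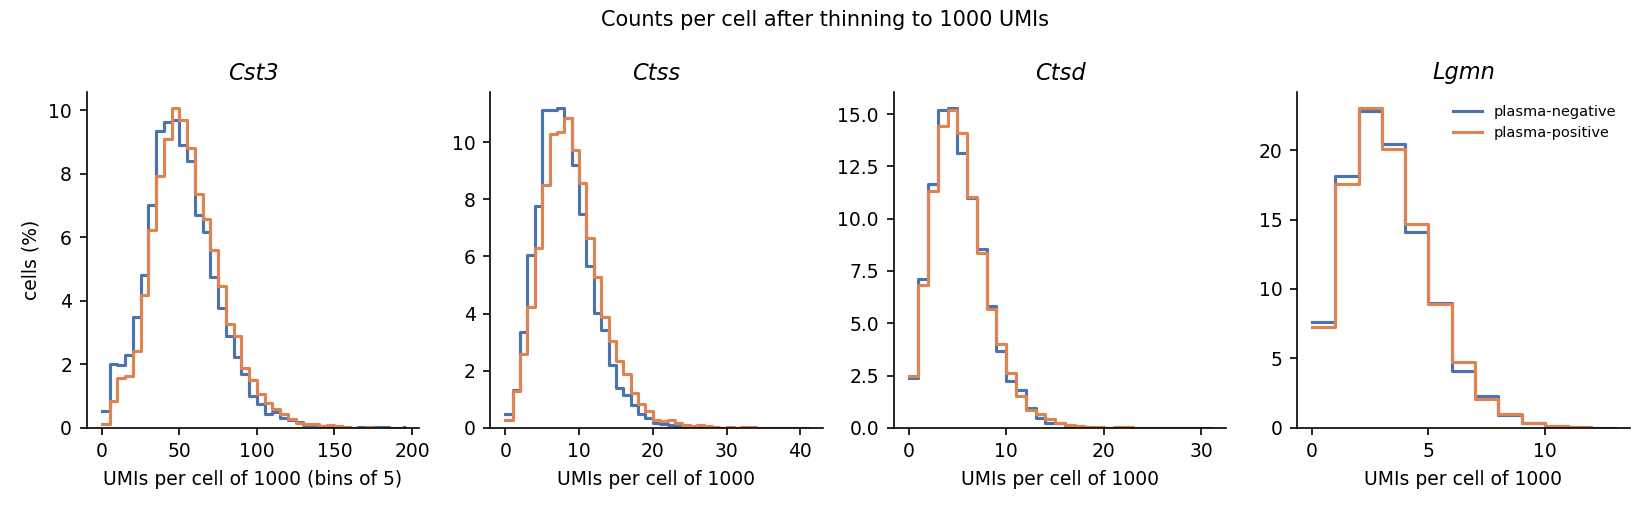
Share of cells (%, vertical axis) against the UMIs of the named gene per cell of 1000 UMIs, in plasma-negative and plasma-positive cells; Cst3 is in bins of 5 UMIs. The Cst3 curve of plasma-positive cells lies to the right of the other, with medians of 53 and 49, and has fewer cells at the low end.

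The Cst3 distributions differed along their length, with quartiles of 36 and 65 in plasma-negative and 40 and 68 in plasma-positive cells. They also differed in a low tail. Fewer than 10 Cst3 UMIs of 1000 were found in 229 of the 9064 plasma-negative cells, 2.53% (2.21% to 2.87%), and in 94 of the 9759 plasma-positive cells, 0.963% (0.779% to 1.18%). This limit of 10 was chosen after the counts were seen. These cells were shallow, with medians of 1508 and 1289.5 UMIs against 3411 and 3869 in the other cells. They held 139 and 150 UMIs of the nuclear RNA Malat1 per 1000, against 65.4 and 55.2. Ctss was also low in them, at 3.25 per 1000 against 7.80 in the other plasma-negative cells, as was Ctsd at 2.65 against 4.85, whereas Ctsc was at 0.541 against 0.562 and the microglia marker Cx3cr1 at 6.55 against 6.36. Their median mitochondrial share was lower than in the other cells among plasma-negative cells, 0.843% against 1.06%, and higher among plasma-positive cells, 2.71% against 1.25%. The part of depth, of nuclear RNA and of mitochondrial share in this tail was not tested.

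The ratios between the libraries were then read within 5 bins of cells with like total UMIs, with like mitochondrial share, and with like Malat1 share. The Malat1 bins were added after the data were seen, because Malat1 stood at 65694 CPM in plasma-negative and 54074 CPM in plasma-positive cells. Ctss was higher in plasma-positive cells in every bin of all 3 kinds: its ratio was 1.11 to 1.13 by total UMIs, 1.09 to 1.13 by mitochondrial share and 1.02 to 1.09 by Malat1 share, and all of these intervals lay above 1.

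Cst3 did not keep its ratio in this way. By total UMIs it ranged from 1.061 to 1.097. By mitochondrial share it was 1.17 in the lowest bin and 0.995 in the highest. By Malat1 share it was 0.979, 0.998, 1.00, 1.01 and 0.974 from the lowest to the highest bin. Cells rich in Malat1 held less Cst3 in both libraries: 64363 CPM in the lowest and 37733 CPM in the highest bin of plasma-negative cells, and 63010 and 36745 CPM in plasma-positive cells. The lowest Malat1 bin held 13.7% of the plasma-negative and 26.0% of the plasma-positive cells, and the highest held 25.9% and 14.4%. Whether the Malat1 share reflects the cells or their handling was not tested.

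Ctsz was lower in plasma-positive cells in all 5 Malat1 bins, at 0.914 to 0.961, and in 4 of 5 mitochondrial bins, where it ran from 0.942 to 1.02. Ctsb ranged from 1.01 to 1.098 by total UMIs, from 1.00 to 1.13 by mitochondrial share and from 0.978 to 1.05 by Malat1 share. By Malat1 share Ctsd was at 0.943 to 1.01, with intervals below 1 in 4 of 5 bins, and Ctsl at 0.964 to 1.03, with 2 below. Lgmn was at 0.955 to 1.02 and Ctsa at 0.943 to 1.05, each with 1 below. Ctsh was at 1.00 to 1.07, with 3 intervals above 1, and Ctsc at 0.962 to 1.07, with 1 above. The 9 proteases together were at 1.04 to 1.06, 1.03 to 1.07 and 1.01 to 1.02 in these bins.

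**Figure D3:**
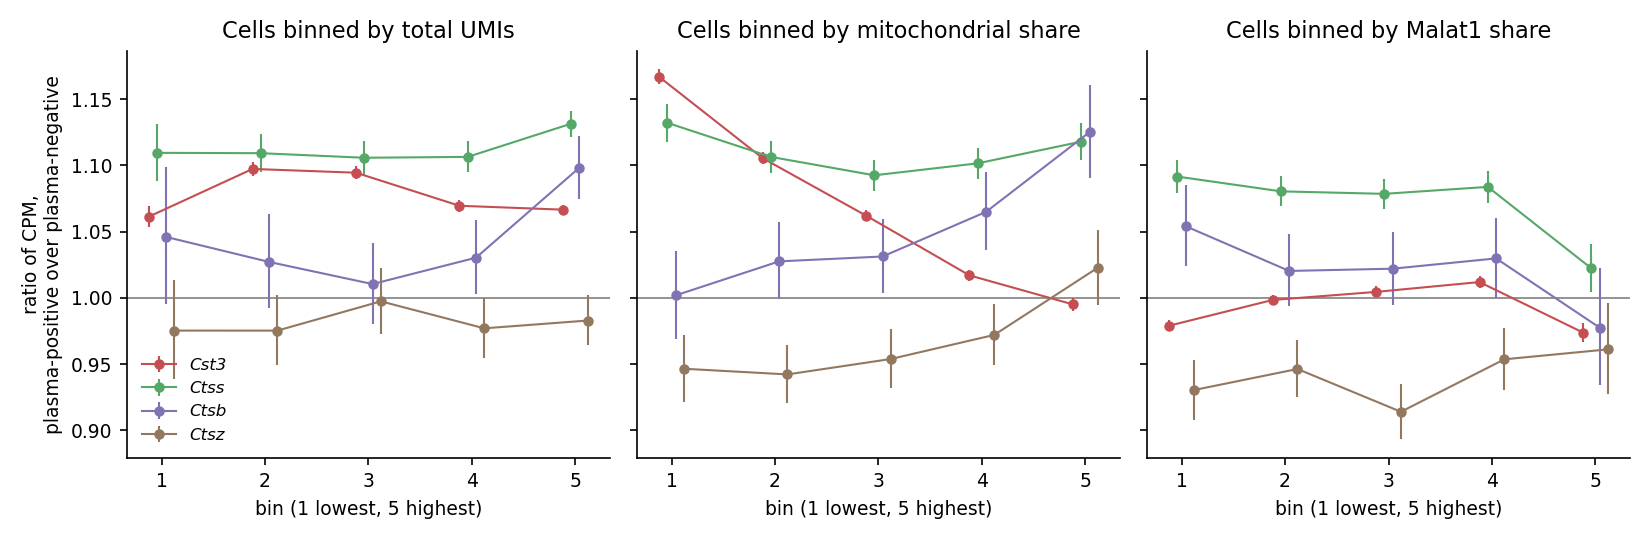
Ratio of CPM, plasma-positive over plasma-negative (vertical axis), for 4 of the genes in 5 bins of cells ordered by total UMIs, mitochondrial share or Malat1 share (horizontal axis, bin 1 lowest), with 95% counting intervals. Ctss stays above 1 in each bin, while Cst3 runs from 1.17 to 0.995 along the mitochondrial bins and lies at 0.974 to 1.01 in the Malat1 bins.

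Across thinned cells, the members most alike were Cst3 and Ctss, with a Pearson r of log counts of 0.42 over 9064 plasma-negative and 0.36 over 9759 plasma-positive cells. Cst3 and Ctsd followed at 0.24 and 0.20, and Cst3 and Ctsl at 0.20 and 0.13. Cst3 and Ctsc had -0.01 in each library, and -0.07 and -0.06 when cells were thinned to 2000 UMIs. The cells of a correlation share 1 library and a fixed total of 1000 UMIs. The low values among the sparse genes are listed only.

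Among 1639 genes with at least 0.1 UMI in the mean thinned cell, the genes most like Cst3 by the lower r of both libraries were C1qb at 0.54 and 0.51, Tmsb4x at 0.49 and 0.42, Tyrobp at 0.42 and 0.37, Ctss, and Fcer1g at 0.39 and 0.35. C1qb is a chain of complement C1q, and Tyrobp and Fcer1g encode signalling adaptors of immune receptors. The gene least like Cst3 was Malat1, at -0.39 and -0.34. For Ctss the nearest genes were Cst3, C1qb at 0.32 and 0.30, C1qa at 0.26 and 0.24, Itm2b and Tmsb4x. For Ctsd they included Cst3, C1qb, Trem2 and C1qa. The nearest genes of the sparser members were again mostly members or chains of C1q, at an r of at most 0.20. They were Ctsd, Ctss, C1qb, Ctsz and C1qa for Ctsb, and C1qb, C1qa, Cst3, Ctss and Itm2b for Ctsl. They were C1qa, C1qb, Ctsd, Cd9 and C1qc for Ctsz, and included C1qa, Cst3, C1qb and Cd81 for Lgmn. Of the genes listed, Cst3, C1qa, C1qb and Ctss are among the most abundant of both libraries. The part of the level in this ranking was not tested.

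Apoe, the lipid carrier that microglia raise in activated states, was used to grade cells by a count that is no member. Among thinned cells, 158 plasma-negative and 641 plasma-positive cells held 3 or more Apoe UMIs, and 67 and 131 of these held exactly 3. Such a class is a range of a count and not a cell type. Members were taken per 1000 UMIs other than Apoe, and each ratio sets cells with 3 or more against cells with 0.

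The papain-family cathepsins were higher in Apoe-rich cells of both libraries, apart from Ctsc. Ctsb was 1.41-fold higher in plasma-negative and 1.42-fold higher in plasma-positive cells, Ctsh 1.29-fold and 1.57-fold, Ctss 1.31-fold and 1.43-fold, Ctsl 1.30-fold and 1.39-fold, and Ctsz 1.22-fold and 1.24-fold. Ctsd was 1.24-fold and 1.12-fold higher, which was less than each of these genes only in plasma-positive cells. Lgmn was at 1.00 and 0.88, and Ctsc at 0.97 and 1.13.

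Cst3 did not follow the same course in both libraries. In cells with 0, 1 to 2, 3 to 9 and 10 or more Apoe UMIs it stood at 50.7, 56.0, 63.8 and 51.1 per 1000 in plasma-negative cells, and at 55.3, 56.7, 52.4 and 44.6 in plasma-positive cells. It was higher with 1 to 2 than with 0 Apoe UMIs, and lower with 10 or more than with 3 to 9, in each library. The plasma-negative value for 10 or more rests on 13 cells, and its counting interval leaves out the spread between cells. Cells with 3 to 9 were above those with 0 in plasma-negative and below them in plasma-positive cells. In cells with 3 or more Apoe and 0 interferon UMIs, a class added after the data were seen, Cst3 stood at 1.25 and 0.970 of its level in cells with 0 Apoe UMIs. In cells with 3 or more Apoe UMIs Cst3 was lower in the plasma-positive library, with a ratio of 0.785 (0.768 to 0.803), whereas in cells with 0 Apoe UMIs it was higher, at 1.091 (1.087 to 1.096). Ctss was higher in the plasma-positive library in both, at 1.17 (1.11 to 1.24) and 1.083 (1.072 to 1.095).

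The top Apoe class differed in size between the libraries. It held 13 plasma-negative and 259 plasma-positive cells. In the plasma-negative cells all 7 markers of border macrophages were at 0, but 13 cells are too few to set this against the plasma-positive cells. In the plasma-positive cells 5 of the 7 were detected, with 20 UMIs in 13 cells (5.02%), while Lyve1 and Cd163 were at 0, and in cells with 0 Apoe UMIs 0.339% held a UMI of the list. The summed microglia markers went from 31.5 per 1000 in plasma-positive cells with 0 Apoe UMIs to 21.6 in this class, and from 32.4 to 22.9 in plasma-negative cells. The mitochondrial share was also higher in cells with 3 or more Apoe UMIs, with medians of 1.51% and 1.72% against 1.04% and 1.21%. The part of these measures in the Cst3 and cathepsin values was not tested.

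**Figure D4:**
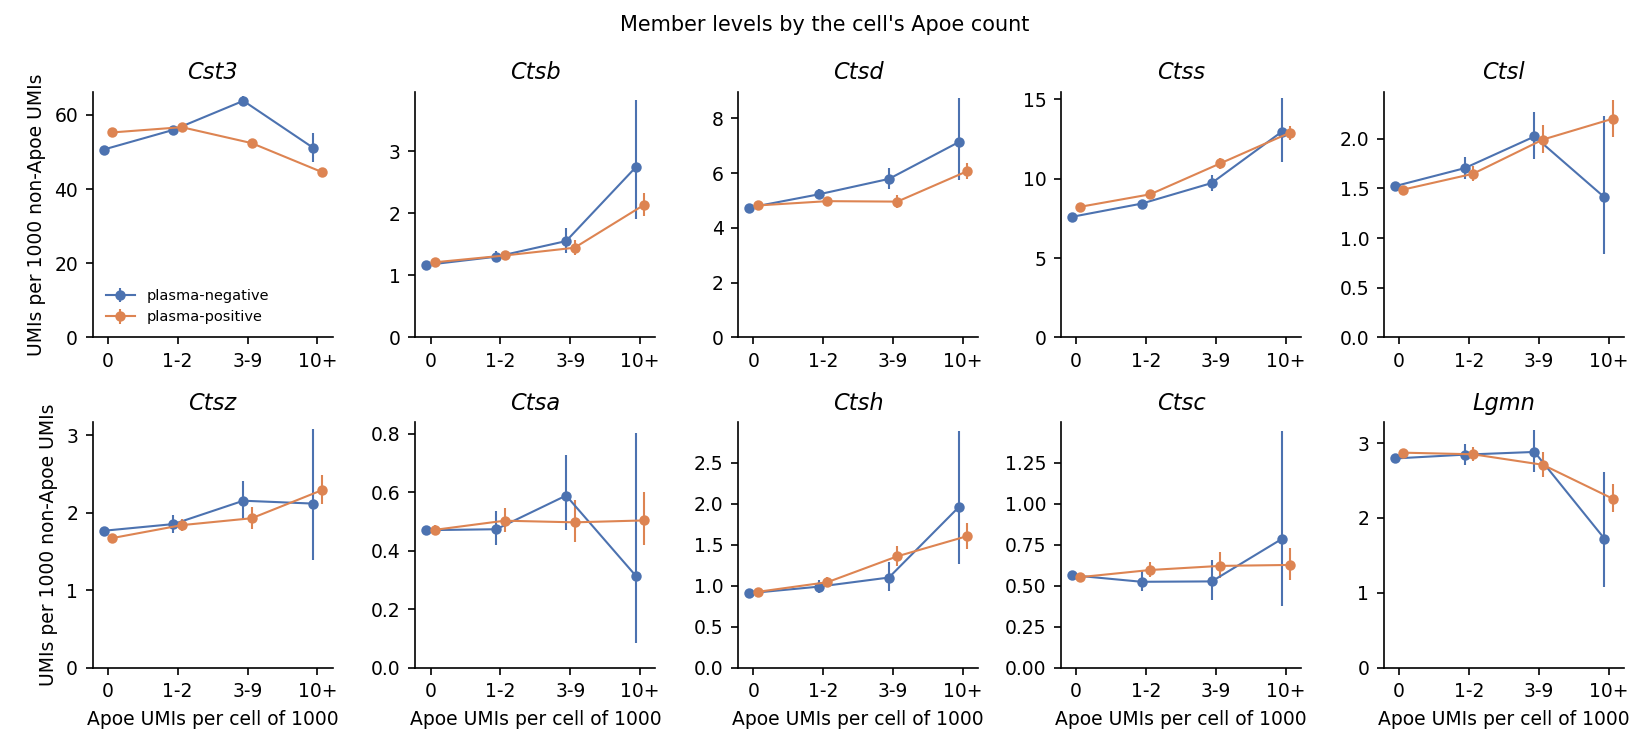
Level of the named genes, in UMIs per 1000 UMIs other than Apoe (vertical axis, from 0), in cells with 0, 1 to 2, 3 to 9 or 10 or more Apoe UMIs (horizontal axis), in each library with 95% Poisson intervals. In plasma-positive cells Cst3 goes from 55.3 to 44.6 along the classes, and the highest Apoe class of plasma-negative cells rests on 13 cells.

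Cells with mitosis transcripts showed the widest contrasts among the members. Only 16 plasma-negative and 34 plasma-positive cells held 3 or more UMIs of the mitosis list. Ctsb stood at 0.373 of its level in cells with none (0.150 to 0.768) in plasma-negative and at 0.259 (0.129 to 0.464) in plasma-positive cells, from 7 and 11 UMIs. Ctsd stood at 0.486 (0.342 to 0.670) and 0.504 (0.402 to 0.626). Ctsc went the other way, at 1.80 (1.03 to 2.93) and 1.70 (1.16 to 2.40), from 16 and 32 UMIs, but with the limit at 2 UMIs the plasma-negative value was 1.52 with an interval that includes 1 (0.865 to 2.46). Cst3 stood at 0.818 (0.757 to 0.883) and 0.729 (0.691 to 0.769), and Ctss at 0.680 (0.542 to 0.843) and 0.652 (0.562 to 0.753). With the limit at 3 UMIs, the direction of all these genes was the same in both libraries. Ctsl was also below 1 in both, but at 0.900 (0.564 to 1.36), an interval that includes 1, and 0.326 (0.190 to 0.522). All these intervals count UMIs and leave out the spread between cells. For Cst3 the variance over the mean across all thinned cells was 10.1 and 9.39, so its intervals from 16 and 34 cells are too narrow.

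In cells with 3 or more UMIs of an interferon list, 81 plasma-negative and 376 plasma-positive cells, Ctss was 1.13-fold (1.05 to 1.22) and 1.29-fold (1.25 to 1.33) higher than in cells with none. Cst3 was at 0.951 and 0.881, and Ctsd at 0.851 and 0.896. In cells with 3 or more UMIs of a chemokine list, 92 and 363 cells, Ctsl was 1.22-fold and 1.46-fold higher and Ctsc 1.5-fold (1.18 to 1.88) and 1.21-fold (1.06 to 1.38), while Cst3 was at 0.853 and 0.878. Among plasma-positive cells the intervals of Ctss and Ctsl lay above 1 and that of Cst3 below 1 in both classes. Ctss in plasma-negative cells of the chemokine class was at 1.08 and went to 0.976 when the limit was set to 2 UMIs. With an immediate early list, whose class held 210 and 166 cells and mostly cells at exactly 3 UMIs (158 and 134), Cst3 was at 0.870 and 0.992. A cell can be in several of these classes, and the classes hold different shares of the libraries.

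**Figure D5:**
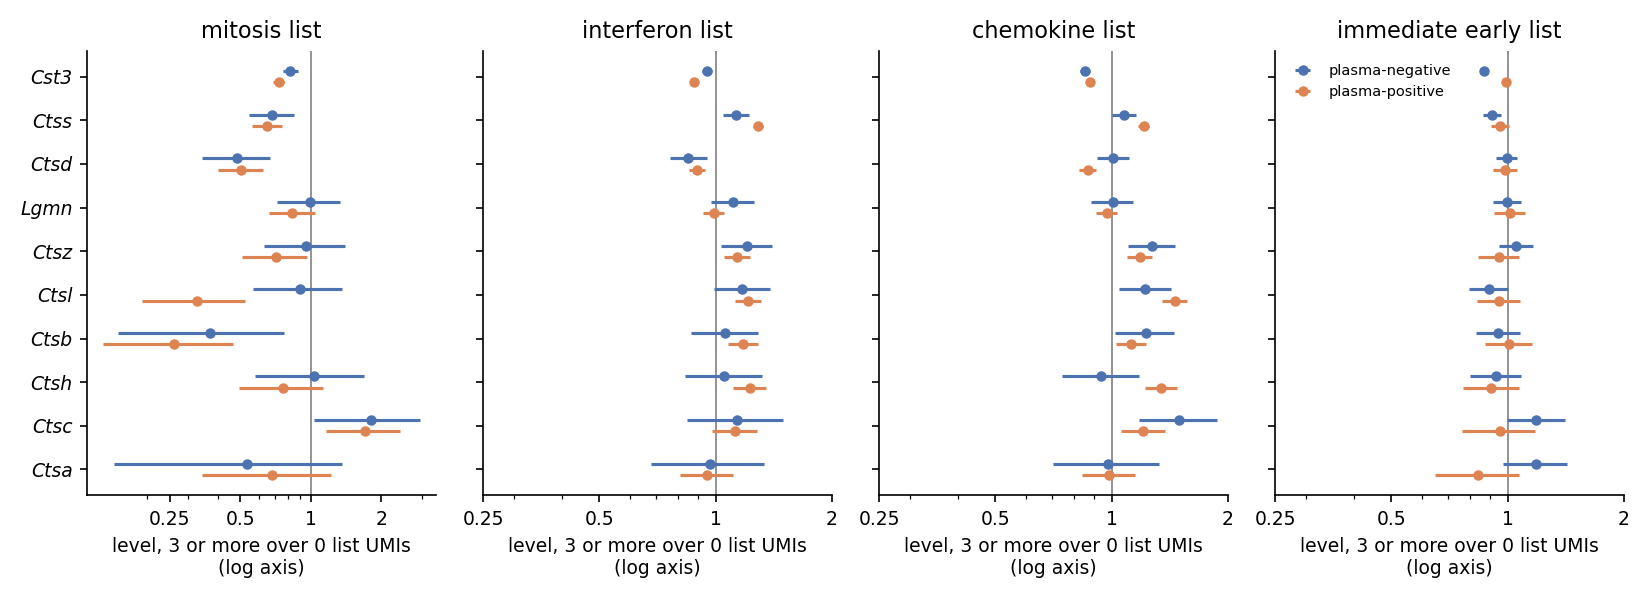
Level of each gene in cells with 3 or more UMIs of a list over its level in cells with 0 (log axis), in each library with 95% counting intervals. Ctsb at 0.373 and 0.259 and Ctsc at 1.80 and 1.70 lie on opposite sides of 1 in the mitosis class, whose intervals are the widest.

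Other genes of the lysosomal protease system were read from 5 lists with 68 genes, of which 41 had a UMI and 19 reached 50 CPM. At 1.1-fold 2 of the 19 were higher and 0 lower in plasma-positive cells, beside 7.18% higher and 11.5% lower of all 3540 genes. At 1.5-fold 0 of the 19 passed, beside 0.141% higher and 0% lower of all these genes. Of 15 other cathepsins, Ctsf stood at 193 and 203 CPM and Ctso at 121 and 110 CPM, and the other 13 were below 50 CPM. Of the cystatins and other inhibitors, Cstb, the cytosolic cystatin B, stood at 82.6 and 95.6 CPM, a log2 ratio of 0.21, and was 1 of the 2 genes past 1.1-fold. Cst7, the cystatin F of immune cells, was below the limit at 5.59 and 9.96 CPM and is named here after its values were seen.

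Among lysosomal peptidases, Tpp1, a tripeptidyl peptidase, stood at 229 and 237 CPM and Prcp, a carboxypeptidase, at 138 and 132 CPM. Among genes of sorting and lysosome biogenesis, Psap, the precursor of the saposins, stood at 1375 and 1518 CPM with a log2 ratio of 0.14 and was the other gene past 1.1-fold. Tfe3, a relative of TFEB, stood at 144 and 134 CPM, with a log2 ratio of -0.10. Among targets of these proteases, Unc93b1, the chaperone of the endosomal Toll-like receptors, stood at 1028 and 1003 CPM and App at 161 and 165 CPM.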

How the data were processed

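Gene counts of 2 single-cell libraries, 1 per group, were used as deposited. Per the file headers, the deposited counts are UMI counts written by Cell Ranger 6.1.2, whereas the submitters' processing notes list Cell Ranger 3.0.1. The genome build, the annotation and the use of strand in counting are not given in the sources used here. In GENCODE, genes that are also in the files overlap Ctsb, Ctsd, Ctsl, Ctsz, Ctsa and Ctsc on either strand, and pseudogenes not in the files lie within Ctss and Ctsl, so reads there could be split. The neighbour with the most counts, Gm26522 at Ctsc, held 998 and 1014 UMIs.

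Cells were kept from 500 UMIs and 300 genes upward and up to a mitochondrial share of 10%, which removed 18 plasma-negative and 28 plasma-positive cells. Counts were summed per library and divided by the library total (CPM). With 1 library per group no test across genes was made. Levels have exact Poisson intervals, shares Clopper-Pearson intervals and ratios conditional binomial intervals, all at 95%. The interval and ratio code was tested on simulated data. Scrublet in scanpy 1.11.5 set a threshold that called 0 doublets in each library, so it did not work here and all cells were kept. Random thinning, bins and classes were computed with numpy 2.4.6, and TMM with edgeR 4.0.16.

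Named are all 10 members, in each pathway list the gene of highest level, highest ratio and lowest ratio at 50 CPM or more, and for members with at least 1 UMI in the mean thinned cell, and always for Cst3, Ctsd, Ctsb and Ctss, the 5 genes most like them, apart from a gene that is not reported here. The members and lists were chosen with earlier results of these data known.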

Additional observations from a re-analysis of the deposited data

How the results depend on the processing

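Each result was recomputed under other cell filters, doublet removal, scalings, thinning depths and limits, which gave 434 values for 227 results; 316 stayed within counting error (for correlations, within 0.05), 117 moved further, and 1 whose interval excluded 1 changed direction. That 1 was Ctss in plasma-negative cells with chemokine transcripts, at 0.976 with a limit of 2 UMIs in place of 3. The tally does not measure stability, because part of it was fixed in advance. Limits of 10 and 200 CPM leave the members' ratios as they are, and a scaling cannot change Cst3 per cysteine cathepsin UMI. Shares of cells with a UMI rise with depth, and 36 of their 40 values moved. Under these settings no member whose interval excluded 1 changed direction between the libraries. Within single Malat1 bins, however, Cst3, Ctsd, Ctsl and Lgmn had intervals below 1. Values whose interval holds 1 could change sides: Ctsa went to a log2 ratio of -0.01 without Malat1, and with a limit of 2 UMIs Ctsz in plasma-negative mitosis cells went from 0.957 to 1.104. Under TMM 3 members were higher by 1.1-fold. The members' median log2 ratio was 0.049 without mitochondrial and ribosomal protein genes, 0.056 by the median of ratios, 0.066 by TMM and 0.010 with a total without Malat1.

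The summed share of the 10 genes had a ratio of 1.07 with all cells, 1.06 from 1000 UMIs a cell, 1.07 after removing the highest doublet scores, 1.08 without mitochondrial and ribosomal genes, 1.09 by the median of ratios, 1.095 by TMM, 1.08 as a mean over cells, 1.06 with mitochondrial bins weighted equally and 1.05 without Malat1. Without Cst3 it was 1.07, 1.07, 1.08 and 1.06 in the no-mitochondrial, median-of-ratios, TMM and mean-over-cells settings, 1.05 when thinned, 1.05 with equal mitochondrial bins and 1.04 without Malat1. Cst3 per cysteine cathepsin UMI had a ratio of 1.01 as a mean over cells and 1.01 when thinned. The settings on mitochondrial bins and Malat1 were chosen after seeing the data.

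No paired analysis was possible because there was a single library for each fraction, so there was also no replicate to leave out. Pooled mice, sort, capture and fraction cannot be told apart. Depth sets what can be seen of the least abundant members: a cell thinned to 1000 UMIs held a UMI of Ctsa in 36.5% and 37.8% of cases. Small classes, such as the 16 plasma-negative cells with mitosis transcripts, have wide intervals, and these still leave out the spread between cells.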
